A study of Mus musculus with 12 samples.

Results

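The genes described here encode subunits of NADPH oxidases, enzymes that pass electrons from NADPH to oxygen. They are Cybb, Cyba, Ncf1, Ncf4, Rac2 and Nox4, 6 of the 18194 genes named on the array. They were taken by symbol from the platform annotation, which lists 12 probe sets for them, and each gene is given by its brightest probe set. Of the 6, the 5 phagocyte oxidase genes were bright enough for the fit across all genes and Nox4 was too dim.

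The study measured total RNA from left ventricles of Balb/c mice aged 6 to 8 weeks on 12 single-colour arrays. The procedures were transverse aortic constriction (TAC, a ligature that narrows the aorta and loads the ventricle) at 1 day, 1 week and 1 month, coronary ligation (MI) at 1 week and 1 month, and a 1 week infusion of the pressor hormone angiotensin II (Ang II) at 2 mg/kg/day. Each has a control array of its own series and time, a sham operation for TAC and MI and a saline minipump for Ang II. All mice were of the same strain, no transgene or deletion is named, and the number of animals behind an array is not stated. The series text gives MI a 30 min occlusion followed by reperfusion and a 1 day harvest, whereas the array labels name a ligation and give the 1 day harvest to TAC, so the array labels were used.

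Each of the 12 groups is 1 array, so a change in a single pair has no replicate and no test, and only a mean over pairs was tested. Scaling the arrays to 1 trimmed mean took factors of 0.872 to 1.09. Actin 3' to 5' signal ratios, which follow RNA integrity, lay between 1.18 and 1.33. The 10 cardiomyocyte markers were measured on all arrays, with summed signals from 86933 to 105652 on the procedure arrays and from 100461 to 110627 on the control arrays. In the deposited table the TAC 1 day array has up to 6 decimals, the other 11 arrays 1.

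In phagocytes the oxidase is assembled on demand. Cybb encodes its electron-carrying membrane subunit and Cyba the small membrane partner that stabilises it. Ncf1 and Ncf4 encode cytosolic proteins that move to the membrane when the cell is activated, Ncf1 as the organiser and Ncf4 as a phosphoinositide-binding adaptor, and Rac2 is the GTPase of blood cells that switches the complex on. Nox4 is a related catalytic subunit that also binds the Cyba protein but works without the cytosolic subunits and Rac, releases mostly hydrogen peroxide, and is known from cardiomyocytes, endothelium and fibroblasts, where TGF-beta raises it.

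Promoters of 4 of the 6 genes were in the RefSeq table used (build GRCm38.p6), and they are shown as a description of sequence only. Each runs from 150 bases before to 30 after the annotated start, 5′ to 3′ on the strand of the gene. Capitals mark matches, on either strand, to GAGGAA (the core bound by PU.1 and other ETS factors), CCAAT or GGGCGG (a GC box), and no 2 of the matches overlapped.
Cybb (chrX:9469295-9469474, minus strand): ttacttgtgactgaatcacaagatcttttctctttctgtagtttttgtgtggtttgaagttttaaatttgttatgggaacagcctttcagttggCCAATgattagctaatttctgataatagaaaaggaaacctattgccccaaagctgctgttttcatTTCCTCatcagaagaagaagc
Ncf1 (chr5:134229596-134229775, minus strand): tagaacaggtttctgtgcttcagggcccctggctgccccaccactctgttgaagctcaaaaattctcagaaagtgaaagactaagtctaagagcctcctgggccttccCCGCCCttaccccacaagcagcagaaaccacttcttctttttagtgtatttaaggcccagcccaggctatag
Cyba (chr8:122432911-122433090, minus strand): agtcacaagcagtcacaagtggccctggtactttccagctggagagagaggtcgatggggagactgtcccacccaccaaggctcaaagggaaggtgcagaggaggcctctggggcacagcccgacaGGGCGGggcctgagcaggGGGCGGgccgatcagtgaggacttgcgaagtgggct
Nox4 (chr7:87246499-87246678, plus strand): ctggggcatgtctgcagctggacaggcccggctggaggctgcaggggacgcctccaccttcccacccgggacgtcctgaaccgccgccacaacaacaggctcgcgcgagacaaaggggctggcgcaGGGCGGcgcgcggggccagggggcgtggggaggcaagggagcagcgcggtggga

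The Cybb window held the GAGGAA core, on the opposite strand and beginning 10 bases into the transcript, and a CCAAT box beginning 56 bases before the start. No GC box was found in it. The windows of Cyba, Ncf1 and Nox4 held 2, 1 and 1 GC boxes and neither of the other motifs. Over 32851 windows of the same 180 bases, 17.5% held GAGGAA, 27% CCAAT and 31% GGGCGG, so each match is common. The GC content was 35.6% for Cybb, 50.6% for Ncf1, 63.9% for Cyba and 73.9% for Nox4, with a median of 53.9% over all windows. The arrays measure no binding, and a match is a description of the letters.

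All 6 genes were high in MI 1 week, while the phagocyte subunits and Nox4 differed in other pairs. At 1 day of TAC all 5 phagocyte genes were higher than in the sham while Nox4 was close to the floor of the measurement. No order can be given there. At 1 week and 1 month of TAC Nox4 had a larger log2 ratio than each of the 5. After MI all 6 genes were higher than in the shams, Nox4 most. With Ang II Nox4 was lower than in its control, Cybb and Cyba differed little and Ncf1 and Rac2 were higher. These are values of single pairs, and the place of Nox4 in TAC 1 day and MI 1 week depended on where the floor was set. In TAC 1 month its place depended on the probe set. For Ncf1 with Ang II the sign depended on the probe set, and the Ang II ratios of Rac2 and Nox4 were inside the span of the controls.

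**Figure D1:**
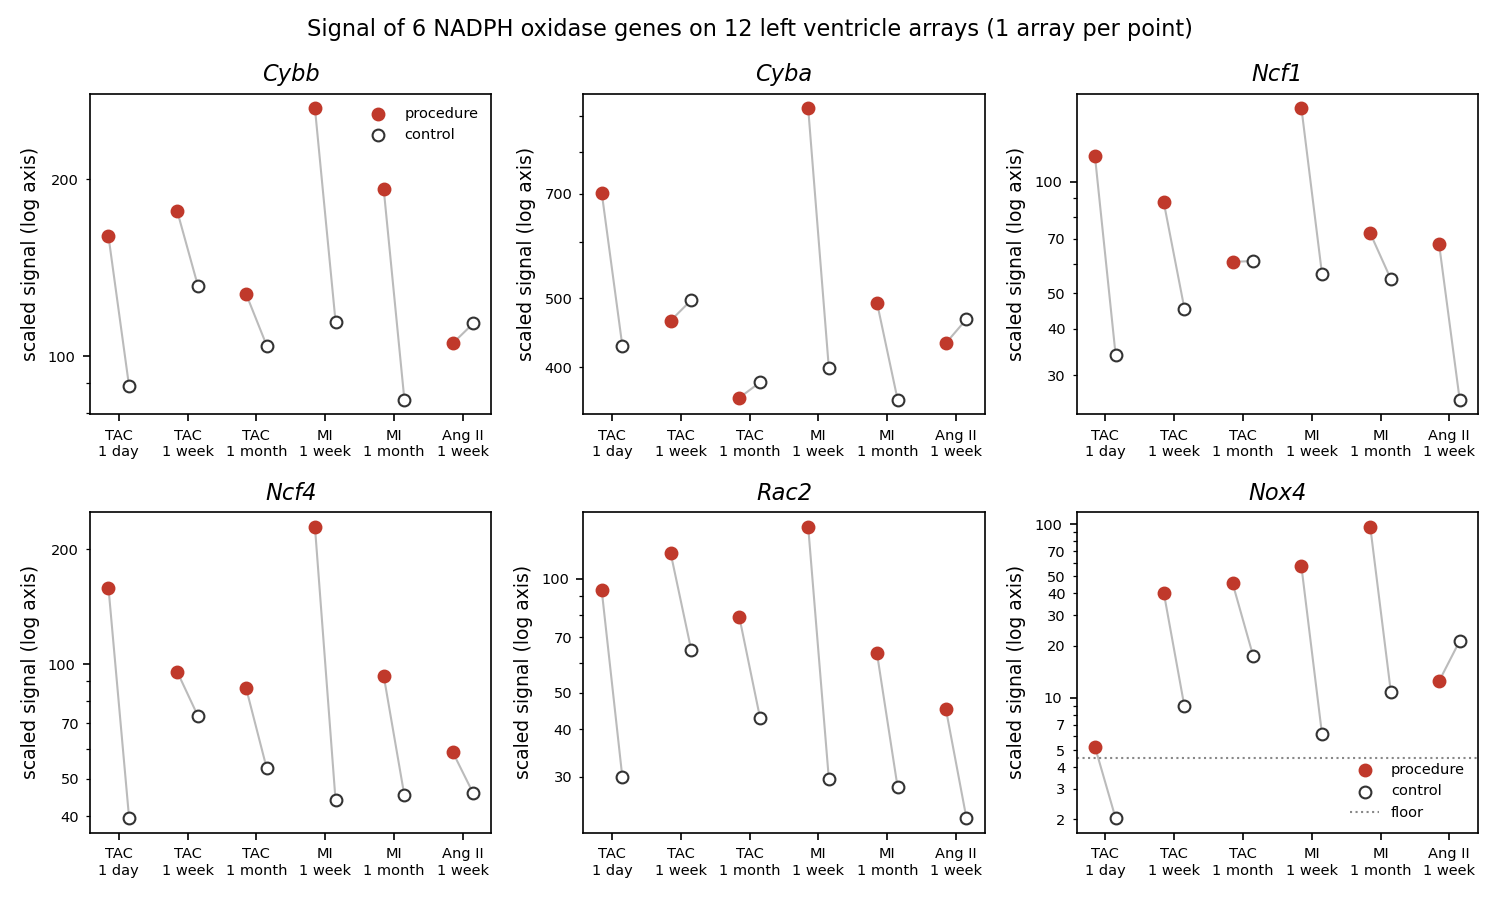
Scaled signal (log axis, a separate scale in each panel) of Cybb, Cyba, Ncf1, Ncf4, Rac2 and Nox4 on the 12 arrays, with each procedure array (filled) left of its control (open) and a dotted line at the floor of 4.54. The MI 1 week array is the highest for the 5 phagocyte genes and the MI 1 month array for Nox4.

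Cybb, the catalytic subunit, had signals of 160.0, 176 and 128 in TAC at 1 day, 1 week and 1 month, 264 and 192 in MI at 1 week and 1 month and 105 with Ang II, against 88.8, 132, 104, 114, 84.3 and 114 in their controls in the same order. It lay above all 6 controls on 4 procedure arrays, the exceptions being TAC 1 month and Ang II. Its log2 ratios were 0.85, 0.42, 0.29, 1.21, 1.19 and -0.11 in the same order of pairs. The 6 controls spanned 0.64 on the log2 scale, so the differences of the Ang II pair and of TAC at 1 week and 1 month were inside that span. The 2 other probe sets of Cybb had mean log2 ratios of 0.58 and 0.58, beside 0.64 for the one used, and each had the same 5 pairs above 0.

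Cyba, the membrane partner shared by both kinds of oxidase, had signals of 702, 465 and 363 in TAC at 1 day, 1 week and 1 month, 923 and 493 in MI and 432 with Ang II, against 429, 497, 381, 399.6, 360.5 and 467 in their controls. Only TAC 1 day and MI 1 week lay above all 6 controls. Its log2 ratios were 0.71 in TAC 1 day and 1.21 in MI 1 week, and between -0.11 and 0.45 in the other 4 pairs, all inside the 0.46 spanned by the controls. Cyba has 1 probe set.

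Ncf1, the organiser, had signals of 117, 87.8 and 60.7 in TAC at 1 day, 1 week and 1 month, 158 and 72.5 in MI and 67.9 with Ang II, against 34.1, 45.4, 61.0, 56.1, 54.5 and 25.8 in their controls. The highest were MI 1 week and TAC 1 day, and TAC 1 month was level with its sham. The log2 ratio reached 1.78 in TAC 1 day, 1.49 in MI 1 week and 1.40 with Ang II, larger than the 1.24 spanned by the controls. The Ang II value rests in part on the control, whose signal was the lowest of the 12. The 3 probe sets of Ncf1 disagreed in that pair, at 1.40, -1.20 and 1.33 from the brightest to the dimmest. The dimmest read 11.4 with Ang II and 2.99 in its control. That control value was under the floor, so the size of the 1.33 is set by the floor. In TAC 1 month the 3 probe sets were at -0.01, -0.57 and 0.61. In TAC 1 day and MI 1 week all 3 lay between 1.42 and 2.70.

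Ncf4, the adaptor, had signals of 158, 95.4 and 86.4 in TAC at 1 day, 1 week and 1 month, 229 and 93.0 in MI and 58.9 with Ang II, against 39.5, 73.1, 53.3, 43.9, 45.3 and 45.9 in their controls. All procedure arrays except Ang II lay above the 6 controls, and all 6 above their own control. Its log2 ratio was 2.01 in TAC 1 day and 2.38 in MI 1 week, a 4.01-fold and a 5.21-fold higher signal, and 1.04 in MI 1 month. The other 3, at 0.38 and 0.70 in TAC at 1 week and 1 month and 0.36 in the Ang II pair, were inside the 0.89 spanned by the controls. Ncf4 has 1 probe set.

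Rac2, the GTPase, had signals of 93.2, 117 and 79.2 in TAC at 1 day, 1 week and 1 month, 137 and 63.5 in MI and 45.4 with Ang II, against 29.9, 65.0, 43.0, 29.7, 28.1 and 23.3 in their controls. It was higher than its control in 6 of 6 pairs, with log2 ratios of 1.64, 0.85, 0.88, 2.21, 1.17 and 0.96. The TAC 1 week sham stood above the 5 other controls, which widened their span to 1.48, and the MI 1 month and Ang II arrays stayed below that sham. Only the ratios of TAC 1 day and MI 1 week exceeded that span. The second Rac2 probe set was dim (mean signal 10.4) and had a mean log2 ratio of 0.27, with -1.02 in TAC 1 week and -1.01 in MI 1 month.

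Nox4 had signals of 5.23, 40.3 and 45.7 in TAC at 1 day, 1 week and 1 month, 57.1 and 96.8 in MI at 1 week and 1 month and 12.5 with Ang II, against 2.03, 8.93, 17.4, 6.16, 10.8 and 21.3 in their controls. The 4 later TAC and MI arrays lay above all 6 controls, while TAC 1 day and Ang II lay within the range of the controls. The TAC 1 day sham was under the floor of 4.54 (the 20th percentile of all values, to which lower signals were raised before log2). Log2 ratios were 2.17 and 1.40 in TAC at 1 week and 1 month, 3.21 and 3.16 in MI at 1 week and 1 month, and -0.77 with Ang II. The MI values are a 9.28-fold and an 8.97-fold higher signal. They exceed the 2.23 spanned by the controls after the floor, which those of TAC and Ang II do not. The lower end of that span is the TAC 1 day sham, raised from 2.03 to 4.54. Before the floor the control signals, 2.03 to 21.3, span more than either MI ratio. The MI and TAC 1 week shams were dim. A floor at the 40th percentile made the log2 ratios 1.82 and 2.58 in MI and 1.31 in TAC 1 week. The TAC 1 day ratio of 0.21 is between values at or near the floor and has no interpretable size, and a floor at the 10th percentile made it 1.37.

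The second Nox4 probe set was dimmer still (geometric mean signal 9.04) and at the floor on 7 of 12 arrays. It read 22.9 against 0.83 in TAC 1 week, 23.4 against 1.64 in MI 1 week and 44.5 against 3.43 in MI 1 month, procedure before control, so these 3 changes appear in both probe sets. In TAC 1 month it read 17.7 on both arrays, where the brighter probe set had 1.40. In TAC 1 day and with Ang II it was at the floor on both arrays.

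**Figure D2:**
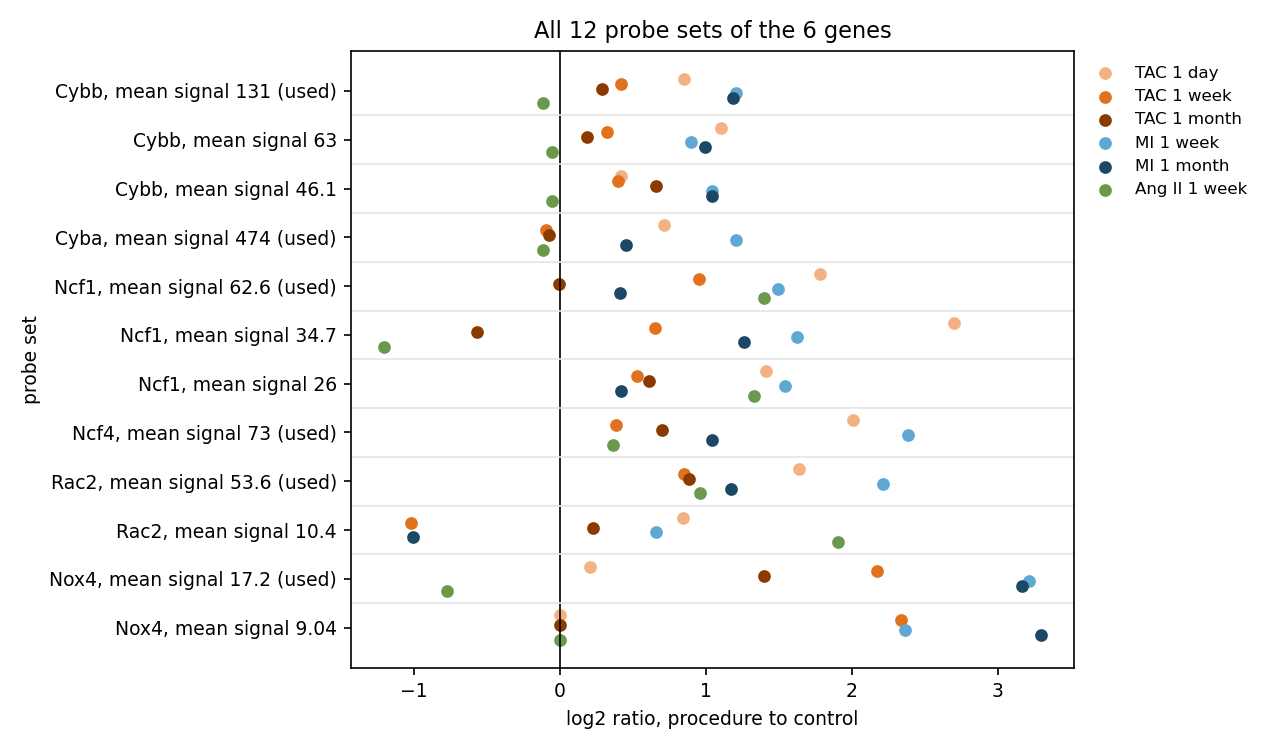
Log2 ratio of procedure to control for each of the 12 probe sets of the 6 genes, 1 point per pair, with the mean signal of the probe set beside the gene and "used" on the brightest. The 3 Cybb probe sets have the same 5 pairs above 0 and run from 0.42 to 1.10 in TAC 1 day. The 3 of Ncf1 spread from -1.20 to 1.40 with Ang II, where the point of the dimmest is set by the floor.

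A gene was called 2-fold higher in a pair where its log2 ratio was at least 1, the brighter of the 2 signals was over 25.9 (the median over the 12 arrays) and the procedure array stood above every control. By that rule 3 of the 6 genes, Ncf1, Ncf4 and Rac2, were called in TAC 1 day, and so were 5.7% of 11624 genes. In TAC 1 week and in TAC 1 month it was 1 of 6, Nox4 each time, against 2.18% and 1.91% of genes. Nox4 itself is not among the 11624 genes behind these shares, being too dim. In MI 1 week all 6 were called, against 6.01% of genes, and in MI 1 month 3 of 6 (Cybb, Ncf4 and Nox4), against 2.89%. With Ang II 1 of 6 was called, Ncf1, against 0.946%, and no member was called lower in a pair. With signals as deposited 3 of 6 were called in TAC 1 week and 3 in TAC 1 month, and with the mean of all probe sets 0 in TAC 1 month and 0 with Ang II.

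**Figure D3:**
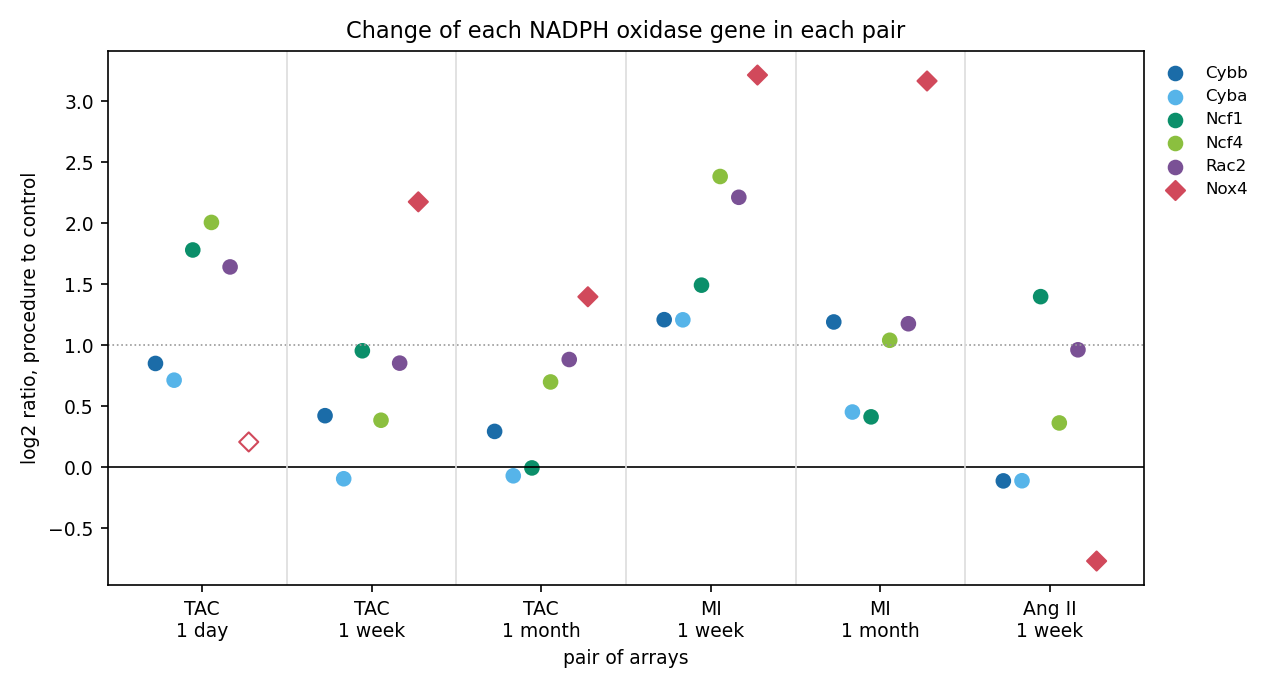
Log2 ratio of procedure to control (vertical axis) for the 6 genes in each of the 6 pairs, circles for the phagocyte genes and diamonds for Nox4, with a dotted line at 1. The open diamond in TAC 1 day is set by the floor. With Ang II Nox4 is the lowest of the 6, and it is the highest in the 4 pairs between, though in MI 1 week not with a floor at the 40th percentile. For Ncf1 with Ang II the second probe set, not shown here, was at -1.20. In TAC 1 month the second Nox4 probe set, not shown here, was at 0.0011.

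The mean change over the 6 pairs was tested next. Rac2 rose by 1.29 ± 0.20 on the log2 scale (adjusted p = 0.00805, higher in 6 of 6 pairs), Ncf4 by 1.14 ± 0.27 (adjusted p = 0.0288, 6 of 6), Ncf1 by 1.00 ± 0.23 (adjusted p = 0.0264, 5 of 6) and Cybb by 0.64 ± 0.17 (adjusted p = 0.0447, 5 of 6), with the standard error of limma's paired fit and Benjamini-Hochberg adjustment over 11624 genes. Cyba was at 0.35 ± 0.17 and did not pass (adjusted p = 0.2, higher in 3 of 6). That is 4 of the 5 genes tested, where 5.16% of all genes passed and were higher, 5.7% passed and were lower, and 10.9% passed in either direction.

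These calls depend on how the variance was modelled and on single pairs. Only the Rac2 call held without each of the 6 pairs in turn (adjusted p from 0.00827 to 0.0317). The Cybb call was lost without the TAC 1 day, TAC 1 week, TAC 1 month, MI 1 week or MI 1 month pair, and without the pairing (adjusted p = 0.0689). Ncf1 was lost without TAC 1 week, MI 1 week or MI 1 month, and Ncf4 without TAC 1 week, TAC 1 month, MI 1 week or MI 1 month, with adjusted p up to 0.0911. Cyba fell to 0.18 without the MI 1 week pair. With no filter on dim genes all 4 calls were lost, with adjusted p from 0.0665 for Rac2 to 0.145 for Cybb. With the mean of all probe sets Rac2 was at 0.78 (adjusted p = 0.0956), Cybb at 0.60 and Ncf1 at 0.91, and these 3 calls were lost too.

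Nox4, with a mean signal of 17.2 under the limit of 18.1 for the fit, had a mean log2 ratio of 1.56 with an SD of 1.61 over the pairs (n = 6), and was higher in 5 of 6. An exact two-sided sign-flip test over the 6 pairs gave p = 0.0938, where 0.0312 is the smallest possible. In limma's fit with no filter on dim genes it was 1.56 ± 0.59 (adjusted p = 0.21). Its mean moved to 1.12 with the floor at the 40th percentile, where it entered the fit (adjusted p = 0.0705), and to 2.03 without the Ang II pair. The spread between pairs was as large as the mean.

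The effects of TAC and MI were then fitted apart, over 3 and 2 pairs. Over MI, Cybb rose by 1.20 ± 0.19 (limma, adjusted p = 0.0400), 1 of the 5 tested genes, where 0.826% of all genes passed and were higher. Ncf4 at 1.71 ± 0.44 (adjusted p = 0.113), Rac2 at 1.69 ± 0.34 (0.0637), Ncf1 at 0.95 ± 0.43 (0.312) and Cyba at 0.83 ± 0.24 (0.149) did not pass in that fit. Over TAC 0 of 5 passed and were higher (1.08% of all genes), with Rac2 at 1.12 ± 0.28 (adjusted p = 0.0806), Ncf4 at 1.03, Ncf1 at 0.91, Cybb at 0.52 and Cyba at 0.18. The mean of TAC joins the 1 day pair, where these genes were high, with 2 later ones. The separate TAC and MI effects were not run under other processing settings.

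The difference between TAC and MI was tested itself, and 0% of genes passed (0 of 11624 in limma's fit, 527 at an unadjusted p under 0.05). TAC minus MI was -0.68 ± 0.25 for Cybb (unadjusted p = 0.0274, adjusted p = 0.983), -0.65 for Cyba, -0.68 for Ncf4, -0.57 for Rac2 and -0.04 for Ncf1. For Nox4 it was -1.93, a mean of 1.26 over TAC and of 3.19 over MI. Limma's adjusted p for Nox4 was 0.910 in the fit with no filter on dim genes. Its TAC mean includes the 1 day ratio of 0.21, which is set by the floor, and MI has no 1 day pair. With 1 pair left out the Nox4 difference ran from -2.39 to -1.40, the latter without TAC 1 day. A lower floor (10th percentile) made it -1.54, and a higher one (40th) made it -1.29. Leaving out 1 pair gave values between -1.03 and -0.27 for Cyba, -1.35 and -0.01 for Ncf4, -1.09 and -0.05 for Rac2 and -0.58 and 0.50 for Ncf1. These differences were not detectable with 3 and 2 pairs.

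The phagocyte subunits were compared with Nox4 as differences of log2 ratio within a pair, since signals of different probe sets have no common scale. In TAC 1 day no size or order can be given, since the ratio of Nox4 there is set by the floor, while the 5 subunits were themselves at 0.71 to 2.01. With Ang II all 5 subunits exceeded Nox4, by 0.66 (Cybb and Cyba) to 2.17 (Ncf1), for the brightest probe sets. The second Ncf1 probe set was at -1.20 there, below Nox4 (-0.77). In the 4 other pairs all 5 were below Nox4, in MI 1 month from -2.75 for Ncf1 to -1.98 for Cybb. In TAC 1 week the differences ran from -2.27 to -1.22, in TAC 1 month from -1.47 to -0.51 and in MI 1 week from -2.01 to -0.83. The TAC 1 week sham was the highest control for Cybb, Cyba, Ncf4 and Rac2, and not for Ncf1 or Nox4. Each pair compares the 5 subunits with the same Nox4 values, so they are not 5 separate observations. A floor at the 10th percentile put Nox4 at 1.37 in TAC 1 day, above Cybb and Cyba, and one at the 40th put it at 1.82 in MI 1 week, below Ncf4 and Rac2. In TAC 1 month the second Nox4 probe set was at 0.0011, below Cybb (0.29), Ncf4 (0.70) and Rac2 (0.88). It was above Cyba (-0.07) and Ncf1 (-0.01). With the mean of all probe sets Nox4 was at 0.70 in TAC 1 month, level with Ncf4 (0.70).

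**Figure D4:**
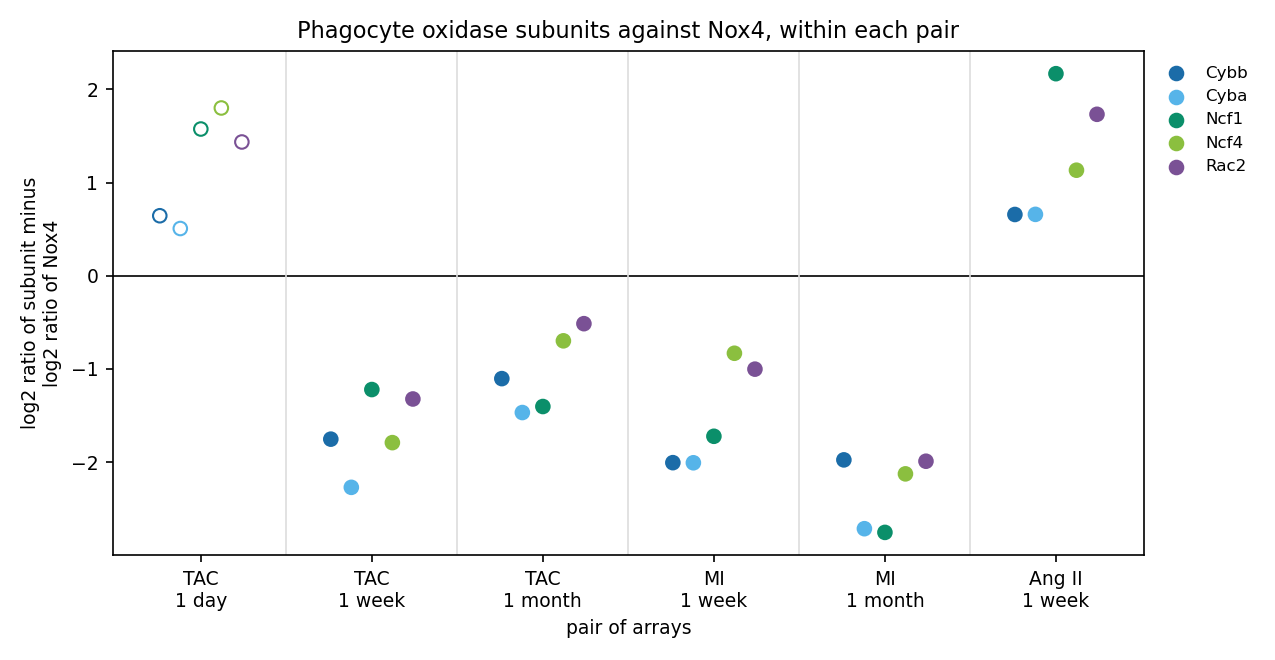
Log2 ratio of each phagocyte subunit minus that of Nox4 in the same pair, 1 point per subunit and pair. Open points in TAC 1 day have a sign and size set by the floor. All 5 lie above 0 with Ang II and all 5 below 0 in the 4 pairs between. This holds at a floor of the 20th percentile and for the brightest probe set of each gene.

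Over the mean of the 6 pairs no subunit differed from Nox4 in limma's fit of these differences, with -1.22 ± 0.74 for Cyba (adjusted p = 0.115), -0.92 ± 0.72 for Cybb (0.211), -0.56 for Ncf1, -0.42 for Ncf4 and -0.28 for Rac2. In that fit 0% of the 11624 genes compared with Nox4 passed, and 7970 had an unadjusted p under 0.05. The values of Nox4 enter every one of these differences. The exact two-sided sign-flip test over 6 pairs gave p from 0.125 for Cyba to 0.656 for Rac2. Cyba passed with the floor at the 10th percentile (-1.41, limma's adjusted p = 0.0457) and without the Ang II pair (-1.59, adjusted p = 0.0151), and did not without the TAC 1 day pair (-1.56, adjusted p = 0.0785). The mean differences of Ncf4 and Rac2 turned to 0.03 and 0.17 with the floor at the 40th percentile. A mean over pairs in which the sign turns describes none of them.

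Partners of the oxidase were described next. Of 15 partners and regulators of the phagocyte oxidase 11 were named on the array and 10 tested, of which 2 rose (5.16% of all tested genes did) and 0 fell (5.7%), with a median change of 0.36 beside -0.0038 over all tested genes. The risers were Arhgdib, which holds Rac proteins inactive in blood cells (0.75 ± 0.15, adjusted p = 0.0175), and the GTPase Rap1b (0.37 ± 0.097, adjusted p = 0.0391). Cybc1, the chaperone of the Cybb protein, was at 0.26 (adjusted p = 0.119) and Rac1, the widely expressed relative of Rac2, at 0.04. The voltage-gated proton channel Hvcn1, which balances the charge of the oxidase, was too dim to test.

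Other NADPH oxidases and their organisers gave 4 tested genes of 7 named, of which 0 passed. Sh3pxd2b, an organiser protein of the same family as Ncf1, had a mean of 1.22 ± 0.57 (adjusted p = 0.188), with 2.97 and 2.94 in MI at 1 week and 1 month and -2.12 with Ang II. The Ang II array was at the floor for Sh3pxd2b, so the size of that last ratio is set by the floor. Poldip2, a partner of the Nox4 protein, was at -0.24 ± 0.080 (adjusted p = 0.0859) and lower in 6 of 6 pairs. Sh3pxd2a, another organiser of that family, was at 0.13.

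Receptors that trigger the phagocyte oxidase rose in 7 of 15 tested members, against 5.16% of all tested genes, and fell in 0, against 5.7%, with a median of 0.89. Among them were the integrin chain Itgb2 (1.23 ± 0.27, adjusted p = 0.0252), the Fc receptor Fcgr1 (1.13 ± 0.22, adjusted p = 0.0161) and the adaptor Tyrobp (0.96 ± 0.24, adjusted p = 0.0368), besides Cd14, Fcgr2b, Clec7a and Tlr4. By pair the list's median was 1.56 in TAC 1 day, 0.34 and 0.41 in TAC at 1 week and 1 month, 1.59 and 1.00 in MI at 1 week and 1 month and 0.15 with Ang II. The 5 oxidase subunits had medians of 1.64, 0.42, 0.29, 1.49, 1.04 and 0.36 in the same order. Medians over all tested genes lay between -0.07 and 0.01.

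Of the myeloid transcription factors that act on oxidase genes 0 of 7 tested passed. Spi1, which encodes PU.1, was at 0.69 ± 0.35 (adjusted p = 0.226), with 1.96 in TAC 1 day and 1.66 in MI 1 week but -1.07 in TAC 1 week. Irf8 was at 0.47 ± 0.14 (adjusted p = 0.0578) and Cebpa at 0.51 ± 0.16 (adjusted p = 0.0701). Of the enzymes that supply NADPH 1 of 8 passed, Pgd of the pentose phosphate pathway (0.48 ± 0.11, adjusted p = 0.0252), a share close to the 10.9% of all tested genes that passed in either direction, and the median was -0.05.

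Enzymes that remove superoxide and peroxide were split, with 3 of 10 tested members higher and 4 lower, against 5.16% and 5.7% of all tested genes. Sod3, the extracellular superoxide dismutase (0.67 ± 0.17, adjusted p = 0.0342), Gpx3, the secreted glutathione peroxidase (0.53 ± 0.13, adjusted p = 0.0371), and Gpx1 (0.43 ± 0.086, adjusted p = 0.018) rose. Sod1 (-0.28 ± 0.059, adjusted p = 0.0209), the mitochondrial Sod2 (-0.28 ± 0.062, adjusted p = 0.0244), Prdx2 (-0.24 ± 0.065, adjusted p = 0.0427) and Prdx3 (-0.35 ± 0.073, adjusted p = 0.02), a mitochondrial peroxiredoxin, fell. The falls were each under 0.4 on the log2 scale.

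Markers of phagocytes and fibroblasts were described beside the oxidase genes. In such bulk tissue more cells of a type and more RNA per cell cannot be told apart. Of 17 macrophage and monocyte markers 11 rose and 0 fell, against 5.16% and 5.7% of all tested genes. Their summed signal was 13634, 12730 and 10732 in TAC at 1 day, 1 week and 1 month, 25161 and 15296 in MI and 8237 with Ang II, against 8277, 11776, 8620, 9729, 8389 and 7193 in their controls. Of 4 tested neutrophil markers 0 passed, and the summed signal of the 10 named ones was 1548 in TAC 1 day and 977 in MI 1 week, from 125 to 262 on the other procedure arrays and from 94.3 to 419 on the controls. In TAC 1 week that sum was below its sham, 254 against 419, and 0 of the 4 tested markers were higher. In each of the other pairs the sum was above its control. No marker of either list was at the floor on all controls. The part of these cells in the oxidase values was not tested.

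Of 12 fibroblast and myofibroblast markers 10 rose and 0 fell, against the same 5.16% and 5.7%. Their summed signal was 18320, 31519 and 24641 in TAC at 1 day, 1 week and 1 month, 46874 and 27206 in MI and 16141 with Ang II, against 12288, 15115, 12877, 15670, 12138 and 11499 in their controls. Their median log2 ratio was 0.71, 1.48 and 0.99 in TAC, 2.03 and 1.76 in MI and 0.56 with Ang II. In the Ang II pair all 12 were above 0, and in TAC 1 day 9 of 12. Endothelial markers had 0 of 10 passing and cardiomyocyte markers 0 higher and 2 lower of 10. The part of fibroblasts in the Nox4 values was not tested.

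**Figure D5:**
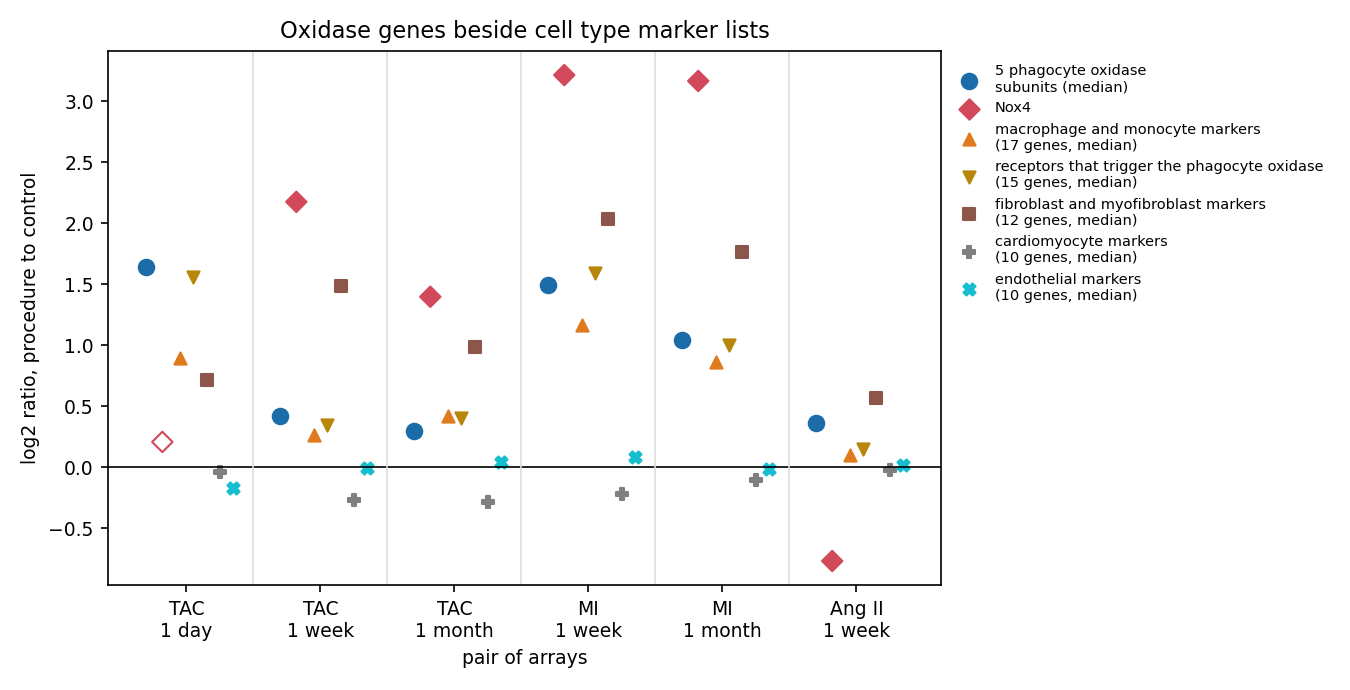
Log2 ratio of procedure to control by pair for Nox4, and the median log2 ratio of the 5 phagocyte oxidase subunits and of 5 lists of genes. The median of the subunits is 1.64 in TAC 1 day and 1.49 in MI 1 week, beside 0.89 and 1.16 for macrophage markers and 1.56 and 1.59 for triggering receptors. Nox4, whose open diamond in TAC 1 day is set by the floor, lies below the fibroblast median with Ang II and above it in the 4 pairs between, though not in TAC 1 week (1.31) and MI 1 week (1.82) with a floor at the 40th percentile. In TAC 1 month the second Nox4 probe set, not shown here, was at 0.0011.

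The genes closest to 3 of the oxidase genes were found by the root mean square difference of their log2 ratios over the 6 pairs, among the tested genes. Nearest to Cybb were Tspo (0.2), Cysltr1 (0.21), Nt5c (0.21), the complement gene C1qc (0.22) and the receptor P2ry6 (0.22). Nearest to Ncf1 were Gas7 (0.29), Sdc1 (0.29), Mthfd2 (0.36), Hcls1 (0.38) and Tfpi2 (0.4). Nearest to Nox4 were the matricellular gene Ccn5 (0.54), Ildr2 (0.63), the small proteoglycan Fmod (0.64), the deiodinase Dio2 (0.78) and elastin, Eln (0.83). Among the members Ncf4 and Rac2 were closest (0.36), followed by Cybb and Cyba (0.4), and Nox4 was 1.42 or more from each of the other 5. These distances describe 6 pairs and carry no test. Those from Nox4 include its TAC 1 day ratio, which is set by the floor. Those from Ncf1 use its brightest probe set, at 1.40 with Ang II, where the second probe set was at -1.20.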

How the data were processed

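Total RNA (5 µg per array, per the labels) from mouse left ventricles was hybridised to 12 Affymetrix arrays, 1 per group. The deposited values are intensity, a linear signal per probe set, and GCOS is named in the submitters' processing notes with no version. For the signal algorithm and its scaling, nothing is given in the sources used here. Pairs of procedure and control arrays come from the sample titles. Deviations from the mean of the procedure or control arrays correlated at 0.149 to 0.286 within every pair.

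Arrays were scaled to a common 2% trimmed mean (105 to 131 before), a floor was set at the 20th percentile (4.54), and values were put on the log2 scale. Of 45101 probe sets, 34958 had exactly 1 symbol, and all symbols matched through Entrez identifiers (34754 found) were those of the RefSeq table. Each gene was given by its brightest probe set, and 11624 of 18194 genes, those whose geometric mean signal exceeded 18.1 (the 40th percentile over the named probe sets), were tested. Since a dim gene passes more easily when it is high somewhere, counts over tested members are not counts over all members.

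Fits used R 4.3.3 and limma 3.58.1 with pairs as blocks, a variance trend on intensity and Benjamini-Hochberg adjustment at 0.05, and were tested on simulated data. P-values measure the spread between these arrays, which mixes procedures, times and technical noise, and the number of arrays limits the precision. Named genes are the 6 members, list genes that passed or, where none passed, the 3 with the largest mean change, and the 5 genes nearest to Cybb, Ncf1 and Nox4. Cybc1, Rac1 and Hvcn1 were named after their values were seen. The members, lists and tests were chosen with earlier results of these data known. Alternatives covered normalization, floor, probe sets, filter, variance model, block and leaving out each pair. They were not run for the separate TAC and MI effects.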

Additional observations from a re-analysis of the deposited data

Results flagged for a closer look

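Cybb, Cyba and Nox4 had a direction with Ang II opposite to that in every pair of another model. The difference was not tested, since Ang II has 1 pair. Cybb was at -0.11 with Ang II and above 0 in all TAC and MI pairs, and Cyba was at -0.11 with Ang II and above 0 in both MI pairs. Both sizes are smaller than the span of the controls (0.64 and 0.46). Nox4 was at -0.77 with Ang II and above 0 in all 3 TAC and both MI pairs, with controls spanning 2.23 after the floor. Its TAC 1 day value (0.21) is set by the floor, and its dimmer probe set was at the floor on both Ang II arrays.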

How the results depend on the processing

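All 6 mean changes stayed above 0 under every alternative run. The number of genes called in the mean of the 6 pairs (1262) was 800 with signals as deposited, 694 with the mean of all probe sets, 241 with no intensity trend, 473 with no block, 0 with no moderation or with no filter on dim genes, and 256 to 1485 leaving out 1 pair. With the mean of all probe sets the calls of Cybb (0.60), Ncf1 (0.91) and Rac2 (0.78) were lost. With no filter and with no moderation those of Cybb (0.64), Ncf1 (1.00), Ncf4 (1.14) and Rac2 (1.29) were lost, with no intensity trend those of Cybb (0.64), Ncf1 (1.00) and Ncf4 (1.14), and with no replicate block, that is without the pairing, that of Cybb (0.64). Leaving out 1 pair gave 0.53 to 0.79 for Cybb, 0.85 to 1.21 for Ncf1, 0.90 to 1.30 for Ncf4 and 1.10 to 1.37 for Rac2. For TAC minus MI, Ncf1 turned to 0.42 without the TAC 1 month pair and 0.50 without the MI 1 week pair (range -0.58 to 0.50). For the difference from Nox4, Ncf4 turned to 0.026 and Rac2 to 0.17 with the floor at the 40th percentile, Rac2 ran from -0.68 to 0.066 (above 0 without the MI 1 month pair), and Cyba passed with the floor at the 10th percentile (-1.41, adjusted p = 0.0457) and without the Ang II pair (-1.59 in a range of -1.59 to -0.92). By the 2-fold rule, 3 members were called in TAC 1 week and 3 in TAC 1 month with signals as deposited, and 0 in TAC 1 month and 0 with Ang II with the mean of all probe sets. The causes were not tested.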
